A study of Mus musculus with 2 samples.

Results

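Prefix models are long-read transcript models that follow a longer transcript, in most cases an annotated one, from its 5' side and stop before using all of its introns. The model builder of the study, TALON, calls a model incomplete when its introns are an uninterrupted part of a longer intron chain. It gives such a model the subtype prefix when the matched part starts at the 5' end of that chain and lacks its 3' end. All models with these labels were taken as members, which gave 1312 of 64851 mouse models in replicate 1 and 1818 of 83878 in replicate 2. Matching by chromosome, strand and intron chain gave 2701 different chains, of which 429 were prefix models in both replicates. The tissue was heart from males of the hybrid strain B6CASTF1/J, bred from C57BL/6J and CAST/EiJ parents, at an age of 18 to 20 months. All libraries, 2 in number, belonged to 1 untreated group and started from 2 µg of total RNA. The labels give the libraries as biological replicates, but both carry the same donor identifier. No condition was therefore compared. Every p-value below sets the libraries against each other and covers counting error only, and the spread between them may be technical.

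Replicate 1 held 688861 and replicate 2 held 1003999 reads on mouse models, so a count of 0 allows up to 4.36 and 2.99 CPM (reads per 1e6 mouse reads). Intervals are 95% Clopper-Pearson intervals and also cover counting error only. All 6 cardiomyocyte markers had reads, with summed levels of 30764 and 32115 CPM in replicates 1 and 2, and all 4 skeletal muscle markers were at 0. The 4 markers each of erythroid, fibroblast, endothelial and macrophage cells also had reads, so the tissue held cells other than cardiomyocytes.

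The 3' end of most messenger RNAs is made by cleavage and polyadenylation, which is guided by a hexamer such as AATAAA or ATTAAA shortly before the cut. A gene can carry further such sites in its introns, where use of one gives a shorter RNA with a different 3' end, and the U1 snRNP is known to restrain this use. Reverse transcription from an oligo-dT primer can also begin at an A-rich stretch inside an RNA, which ends the read early without any cut in the cell.

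The ends that carried the most reads differed in the letters around them. The following stretches are printed as examples and do not stand for all kinds of end. They were read from GENCODE M21 transcript sequences, 5' to 3' on the strand of the gene, with coordinates in mm10. The first 7 are the last 30 bases before the 3' end of the chain, with AATAAA and ATTAAA in capitals. They come from chains at an annotated transcript end among the 15 with the most reads. The ends of Caprin1 (chr2:103767107-103767136, minus strand), Sik3 (chr9:46202856-46202885, plus strand) and Lrp6 (chr6:134540774-134540803, minus strand) lie in an intron of the longer parent transcript. A shorter annotated transcript of the same gene ends in each of these places, of the protein coding type in Caprin1 and Sik3 and of the retained intron type in Lrp6. The ends of Myl3 (chr9:110769769-110769798, plus strand), Mbd3 (chr10:80392539-80392568, minus strand), Nexn (chr3:152236982-152237011, minus strand) and Cars2 (chr8:11513977-11514006, minus strand) are the usual ends of these genes, in the last annotated exon. The usual end of a gene is here the end of its most-read known transcript. By this rule the Lrp6 end is a usual end as well, although it lies in an intron of the longer parent.
Caprin1: cactcAATAAAtacttgttgaatgaatgaa
Sik3: agggaagttgaAATAAAatggttttcatgg
Lrp6: taaagcttatacaATTAAAaaatataaaaa
Myl3: ttatgAATAAAtggtttccttccttccttc
Mbd3: ttcAATAAActgatggtaggaacttgtgaa
Nexn: aatcaaAATAAAtttacctgtgcATTAAAa
Cars2: cctatgctgcccactggtgtgtatttggaa
At least 1 of the hexamers was present in 6 of the 7, and Cars2 had none in these 30 bases. The next stretch is from Son, whose chain ends inside an exon of the parent. It has the last 10 bases of the chain in lower case (chr16:91654690-91654699, plus strand) and the next 20 bases of the parent transcript in capitals.
Son: aaagaagcatAAAAAGCACAAAAACAAAAA
Of these next 20 bases 16 were A. The end of Hnrnpa2b1, on an exon border and not printed, had neither hexamer in its last 30 bases. How these ends arose was not tested.

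Prefix models took up a small and similar part of both libraries. They held 2334 of the mouse reads in replicate 1, or 0.339% (0.325 to 0.353), and 3297 in replicate 2, or 0.328% (0.317 to 0.340). The mean share was 0.334% ± 0.0074 (SD, n = 2 libraries), and the difference did not pass Fisher's exact test (two-sided p = 0.248). Suffix models, which lack the 5' part, held 8.03% and 8.39% of the reads in replicates 1 and 2, so that prefix reads came to 0.0422 and 0.0391 of suffix reads. Prefix models had a median of 6 exons in each replicate and a median length of 1742 bases in replicate 1 and 1760 bases in replicate 2. Most rested on very few molecules, since 77.2% and 77.1% of them had 1 read, and 65 models in replicate 1 and 84 in replicate 2 had at least 5.

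Prefix chains with more reads were usually present in both libraries. Of the 65 chains with at least 5 reads in replicate 1, 87.7% (77.2 to 94.5) were also prefix models in replicate 2, and of the 84 such chains in replicate 2, 85.7% (76.4 to 92.4) were prefix models in replicate 1. The same measure gave 98.1% and 94.4% for suffix models and 99.8% and 98.7% for known models. For models with new combinations of known junctions it was 90.5% and 87.3%, and for models with new junctions 82.9% and 80.5%. Some of the prefix chains with at least 5 reads carried another class in the other library, 8 of the 65 in replicate 2 and 7 of the 84 in replicate 1. Over chains of any read count this was so for 91, mostly as a new combination of known junctions. When the chain was looked for under any class, all 65 chains of replicate 1 and 94.1% of the 84 chains of replicate 2 were found. The plot of reads per chain shows that the chains with many reads in 1 library also had many in the other.

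**Figure D1:**
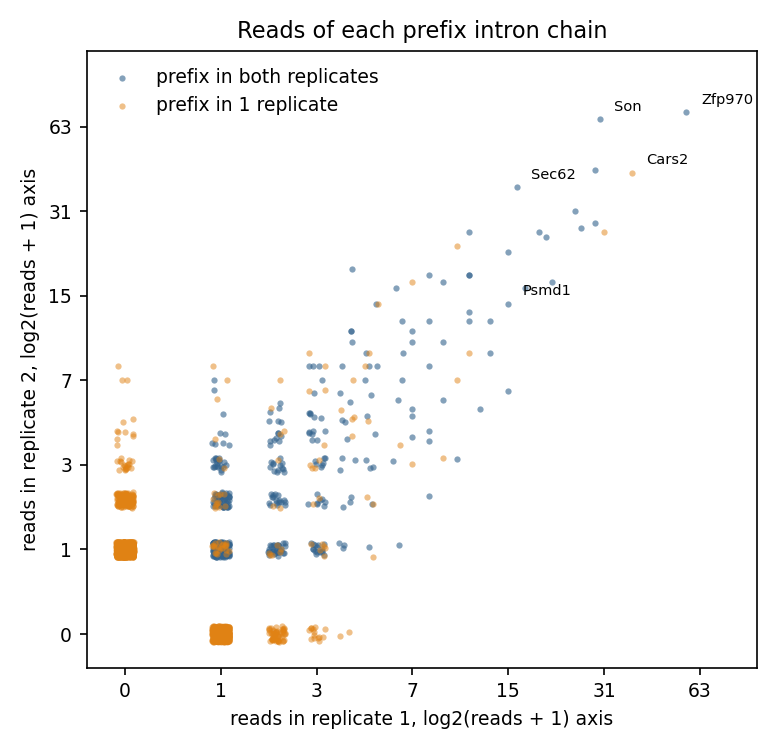
Reads of each of the 2701 prefix intron chains in replicate 1 (x axis) and replicate 2 (y axis), both on a log2(reads + 1) scale with a small random shift of counts under 7 so that chains with equal reads can be seen. Blue points are prefix models in both replicates and orange points in 1 replicate only, and an orange point above 0 on both axes has another class in the other replicate. Most chains sit at 1 read in 1 library, while Zfp970 and Son reach 57 and 30 reads in replicate 1 and 71 and 67 in replicate 2.

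The 3' ends of prefix models fell into 3 kinds of place. The last base was also the last base of an annotated transcript on the same strand for 587 models in replicate 1, or 44.7% (42.0 to 47.5), and for 769 in replicate 2, or 42.3% (40.01 to 44.6). A further 357 models, or 27.2% (24.8 to 29.7), and 477 models, or 26.2% (24.2 to 28.3), ended exactly on the 3' border of an annotated exon that was not the last of its transcript. The remaining 28.0% and 31.5% ended elsewhere, of which 56 and 80 lay exactly on the first base of an annotated exon. The suffix models ended at an annotated transcript end in 88.7% and 88.6% and at an exon border in 0.232% and 0.295%. A suffix model keeps the last intron of the chain it matches, so its low exon border share follows largely from the class rule. For models with new combinations of known junctions the exon border share was 0.499% and 0.556%, and for models with new junctions it was 0.658% and 0.794%. Incomplete models labelled as both prefix and suffix, 136 in replicate 1 and 176 in replicate 2, ended on an exon border in 8.82% (4.64 to 14.9) and 7.96% (4.42 to 13.0). Ends on exon borders were therefore also found in that class, at a lower share than in prefix models, and no test between classes was run. Whether the model builder moved read ends onto annotated positions is not given in the sources used here.

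**Figure D2:**
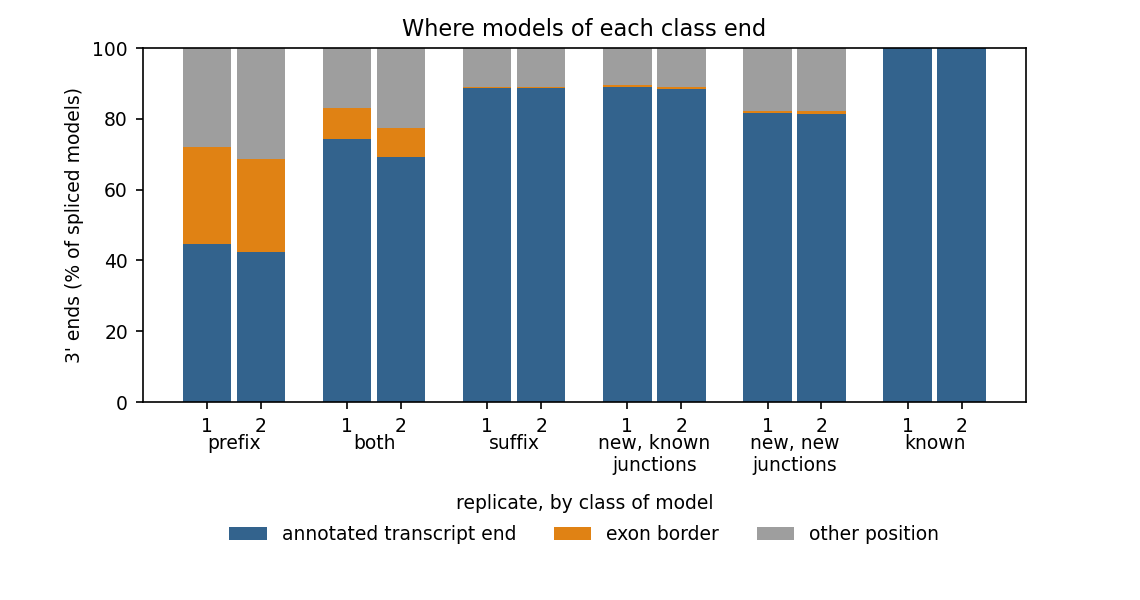
Percent of spliced models (y axis) that ended exactly at an annotated transcript end, exactly on another 3' exon border, or elsewhere, for 6 classes of model, with replicate 1 left of replicate 2 in each class. Prefix models show 27.2% and 26.2% at exon borders, models that match as prefix and suffix (both) show 8.82% and 7.96%, and each of the other 4 classes shows less than 1%. For suffix and known models, which keep the last intron of their chain, the low share follows largely from the class rules.

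A transcript end that prefix models met was not always the end of a coding transcript. In replicate 1, 55.5% of the 587 annotated ends belonged to a protein coding transcript, 24.7% to a retained intron transcript, 10.7% to a processed transcript and 7.33% to a target of nonsense-mediated decay. Replicate 2 gave 57.7%, 23.8%, 10.7% and 5.59% of 769. In the genes whose most-read known transcript could be set beside them, 75.2% and 76.1% of prefix models ended more than 50 bases before the end of that transcript. The median distance of these early ends was 10104 bases of genome in replicate 1 and 9998 in replicate 2. Another 20.0% and 19.6% ended within 50 bases of it, and 4.76% and 4.28% ended beyond it. A prefix model is therefore not in every case a shortened RNA: one that reads through the last intron into the usual last exon also lacks introns of its parent.

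The end was then placed in the parent, the compatible annotated transcript of the same gene with the most reads, which was found for 1082 models of replicate 1 and 1449 of replicate 2. Of all prefix models, 15.1% in replicate 1 and 17.7% in replicate 2 followed a new model only. For 2.44% and 2.59% no parent was found. Of the ends with an annotated parent, 38.4% and 37.3% lay inside the last matched exon. Inside the next intron lay 35.9% (33.0 to 38.8) and 36.1% (33.6 to 38.6), and beyond that intron 25.8% and 26.6%. The position went together with the length of the intron. Where the model ended inside it, the next intron had a median of 3238 bases in replicate 1 and 3331 in replicate 2, and the end lay a median of 666 and 662 bases past the donor site. Where the model read through it, the median intron was 376 and 393.5 bases long. For ends inside the last matched exon the next intron had a median of 1587 bases in replicate 1 and 1626 in replicate 2. A longer intron has more bases to end in, so these classes depend on intron length by construction, and no test was run.

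Ends in the last matched exon piled up on its last base. The donor base itself held 28.0% and 27.2% of all ends with a parent, against 0.832% and 1.24% at the 10 bases before it and 0.555% and 0.966% at the 10 bases past it. Prefix models kept, that is spliced as in the parent, a median of 60% of the introns of the parent in replicate 1 and 56.5% in replicate 2. Only the last intron was missing in 31.9% and 32.2% of them, and only the first was kept in 12.8% and 14.4%. The 5' start was within 50 bases of that of the parent in 70.2% and 69.2%.

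**Figure D3:**
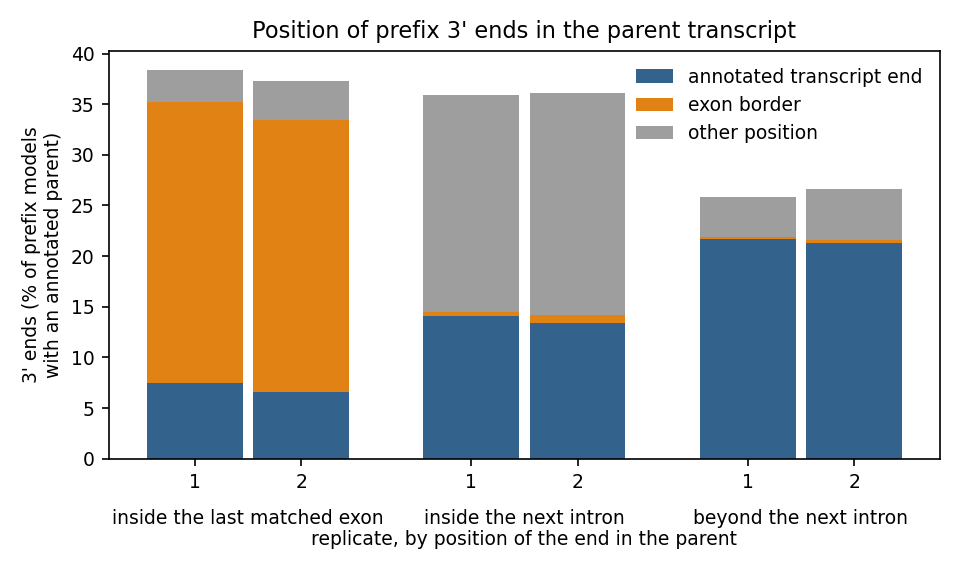
Percent of prefix models with an annotated parent (y axis) whose 3' end lay inside the last matched exon, inside the next intron or beyond it, with replicate 1 left of replicate 2 and the colour giving the kind of end. Ends in the exon are mostly on its border, ends in the intron are mostly at no annotated position, and ends beyond the intron are mostly annotated transcript ends.

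Most prefix ends came before the end of the reading frame. Of the models whose parent has an annotated stop codon, 767 of 1013 in replicate 1, or 75.7% (73.0 to 78.3), and 1008 of 1337 in replicate 2, or 75.4% (73.0 to 77.7), ended upstream of it. This held for 98.3% and 96.8% of ends on exon borders and for 93.5% and 91.8% of ends at no annotated position. An exon border here is not the last of its transcript, so an end there precedes any stop codon in the last exon by definition. At annotated transcript ends the share was 49.3% and 49.2%.

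The hexamers AATAAA and ATTAAA were searched on the strand of the model in the 50 bases before each end. At annotated transcript ends 67.7% (63.7 to 71.5) of the prefix models of replicate 1 and 64.9% (61.4 to 68.3) of those of replicate 2 had at least 1 of them. These annotated ends are not all early ends. In 235 models of replicate 1 and 308 of replicate 2 they lay beyond the next intron of the parent. Known models at annotated ends had 73.0% and 71.8%, and suffix models 82.7% and 82.5%. At exon borders the share for prefix models was 10.2% (7.23 to 13.9) and 9.01% (6.57 to 11.99). Over all 50-base windows of the 1850 parent transcripts 3.804% held a hexamer. The ends at other positions mostly lie in introns, where only 20.1% and 23.1% of the models had sequence, so no share is given for them.

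**Figure D4:**
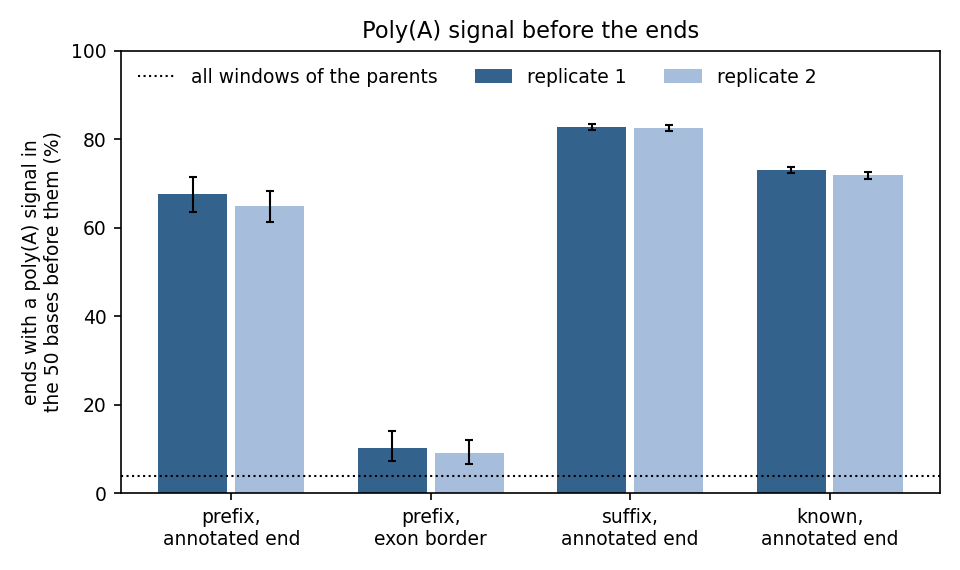
Percent of 3' ends with AATAAA or ATTAAA in the 50 bases before them (y axis), by class of model and kind of end, with replicate 1 left of replicate 2. Bars show the percent with 95% Clopper-Pearson intervals and the dotted line marks the 3.804% of all 50-base windows of the parents that hold a hexamer. Prefix models reach 67.7% and 64.9% at annotated ends, early and usual ones together, and 10.2% and 9.01% at exon borders.

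A-rich stretches were described only for ends inside the last matched exon, where the next bases of the parent can be read. At least 60% A in the next 20 bases followed 9.64% (6.98 to 12.9) of 415 such ends in replicate 1 and 7.42% (5.35 to 9.97) of 539 in replicate 2, against 1.13% of all 20-base windows of the parents. The share was 29.6% and 24.2% at annotated transcript ends, 4.00% and 3.09% at exon borders and 11.8% and 9.09% elsewhere. It was 28.6% and 31.3% among ends with at least 5 reads. These shares rest on few ends, since such ends are only a part of the 65 and 84 prefix models with that many reads. Around the donor, from 100 bases before it to 20 bases after it in the spliced parent, an A-rich 20-base window was present for 29.5% (24.4 to 35.1) of the 295 prefix ends on the border in replicate 1. In replicate 2 it was present for 28.6% (24.2 to 33.4) of 384. All internal exon borders of the same parents gave 15.8% (14.7 to 17.0) and 17.8% (16.7 to 18.9). Borders of 1 transcript are not independent, and the part of A-rich RNA in these ends was not tested.

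The 15 chains with the most reads in the lower of both libraries are described by where they end. Among those ending in an intron, Caprin1, an RNA-binding protein of stress granules, had 29 reads in replicate 1 and 28 in replicate 2 on a chain of 18 of the 19 exons (chr2:103767107-103797599, minus strand). It ended 1299 bases into the last intron of Caprin1-201 and 4166 bases before the usual end. Lrp6, a coreceptor of Wnt ligands, had 19 and 26 reads on a 2-exon chain that ended 878 bases into the first intron, which is 21058 bases long (chr6:134540774-134566913, minus strand). The most-read known transcript of the gene, Lrp6-205 with 7 reads in total, ends at the same base, and the longer parent Lrp6-201 had 5 reads. The kinase gene Sik3 had 21 and 17 reads on a 14-exon chain that ended 815 bases into the next intron and 19390 bases before the end of Sik3-202 (chr9:46012820-46202885, plus strand). Sik3-202 itself had only 1 read in total. In each of these 3 genes both libraries had the same end position, which is also an annotated transcript end.

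The largest count belonged to Zfp970, a zinc finger gene, with 57 reads in replicate 1 and 71 in replicate 2 (chr2:177464733-177474826, plus strand). The chain had 3 exons and ended 1148 bases into the last intron of Zfp970-201, at no annotated transcript end. Zinc finger genes of this kind have near-identical copies, so the gene its reads were given to is uncertain. Kansl2, a subunit of a histone acetyltransferase complex, had 15 and 22 reads (chr15:98524712-98534244, minus strand). Its chain read through an intron of 1862 bases and ended on the first base of the following exon, at the same position in both libraries.

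Among chains ending inside an exon or on its border, Son, a nuclear speckle protein that takes part in splicing, had 30 reads in replicate 1 and 67 in replicate 2 (chr16:91647879-91654699, plus strand). The chain was 362 bases long with 3 exons, ended 5881 bases before the end of an exon that goes on in the parent, and stopped at the A-rich stretch printed above. Psmd1, a subunit of the proteasome's regulatory particle, had 15 and 14 reads on a chain of 22 of the 25 exons (chr1:86064619-86132749, plus strand). It ended 51 bases before the donor, where an annotated nonsense-mediated decay transcript also ends. Sec62, part of the protein translocation machinery of the endoplasmic reticulum, had 16 and 38 reads on the first 4 of 8 exons (chr3:30792875-30810026, plus strand). The 3 ends were upstream of the stop codon of the parent and were the same base in both libraries.

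Some chains were prefixes and still reached the usual end of the gene. That end rests on few reads in Nexn and Cars2, whose most-read known transcripts had 8 and 14 reads in total. Myl3, the ventricular essential myosin light chain, had 26 reads in replicate 1 and 27 in replicate 2 on a 6-exon chain (chr9:110763646-110769798, plus strand). It read through the last intron, of 132 bases, without splicing it and ended within 4 bases of the usual end. Mbd3, a subunit of the NuRD chromatin complex, had 17 and 16 reads on a chain that read through its last intron of 76 bases (chr10:80392539-80399422, minus strand). Both chains ended at or after the stop codon of the parent. Nexn, a protein of the cardiac Z-disc, had 12-exon chains with 29 and 44 reads and with 31 and 26 reads, both ending at the usual end, and their parents were new models rather than annotated transcripts. The chain with 31 and 26 reads carried another class in replicate 2. Cars2, the mitochondrial cysteinyl-tRNA synthetase, had 38 and 43 reads on a 15-exon chain at the usual end and was a prefix model in replicate 2 alone. In contrast, Hnrnpa2b1, an RNA-binding regulator of splicing, had 20 and 25 reads on a 2-exon chain of 219 bases that ended on an exon border 840 bases past the end of its most-read known transcript.

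Prefix models were spread thinly over many genes. They were present in 1060 annotated genes in replicate 1 and 1395 in replicate 2, or 8.01% and 9.74% of the genes with reads, and 97.1% and 96.2% of these genes were protein coding. Of the 1951 genes with a prefix model in either library 504 had one in both, which is 47.6% of the genes of replicate 1 and 36.1% of those of replicate 2. A single prefix model was found in 894 and 1149 genes. Among 4087 genes that had 20 or more reads per library, 14.6% and 17.2% had prefix reads, and where they did these came to a median of 2.30% and 1.75% of the gene's reads. Genes with more reads more often had a prefix model. In replicate 1, 11.96% of the genes with 20 to 50 reads and 41.5% of those with at least 1000 had one, and in replicate 2 the values were 14.1% and 38.7%. The pooled prefix share ran the other way, at 0.809% and 0.923% in the shallow genes and 0.0777% and 0.0666% in the deepest.

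In a few genes prefix reads were a large part of all reads in both libraries. The 8 genes with the highest mean share were led by Son, where 30 of 37 reads in replicate 1, or 81.1% (64.8 to 92.0), and 67 of 82 in replicate 2, or 81.7% (71.6 to 89.4), were prefix reads. Known transcripts of Son had 2 and 3 reads. Lrp6 had 65.5% (45.7 to 82.1) and 68.4% (51.4 to 82.5), and Sik3 had 67.7% (48.6 to 83.3) and 47.2% (30.4 to 64.5). Phf10, a subunit of a SWI/SNF chromatin remodelling complex, had 34.2% and 38.1%, most of them on a 9-exon chain with 11 and 13 reads that ended at an annotated end 2822 bases into an intron. Eif5b, a GTPase that joins the ribosomal subunits, had 29.0% and 40.5%, with 6 and 12 reads on a chain of 5 exons that ended on the border of the last of them. Arhgef12, a guanine nucleotide exchange factor, had 38.5% and 27.5%, and its leading chain ended 176 bases into an intron. This was 62162 bases before the end of Arhgef12-202, its most-read known transcript, which had only 4 reads in total. Synpo, an actin-associated protein, had 27.3% and 36.2%, and Sec62 had 23.2% and 38.0%. The shares of all 8 genes had overlapping intervals in the libraries, and none passed the test of the difference adjusted over all genes (Fisher's exact test).

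**Figure D5:**
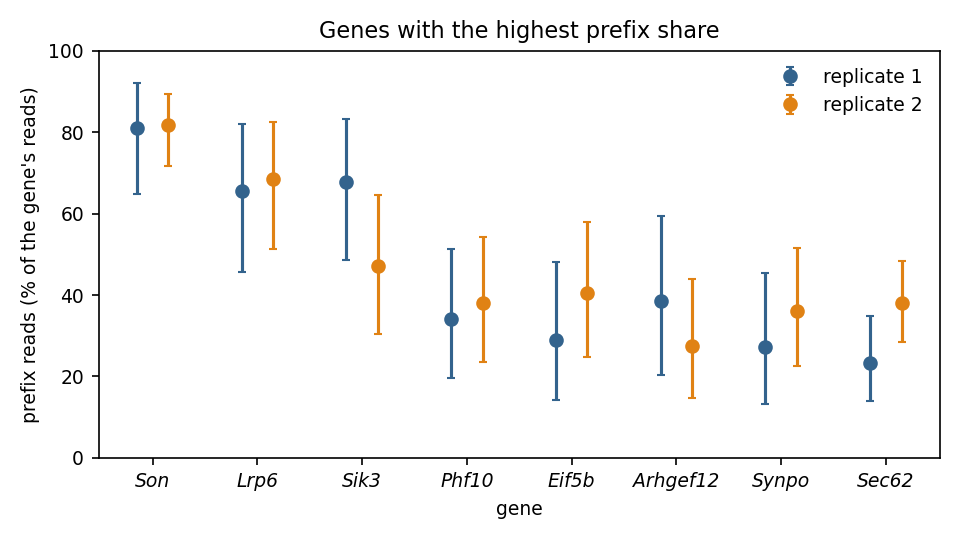
Prefix reads as a percent of all reads of the gene (y axis) in the 8 genes with the highest mean share, out of those that had 20 or more reads and 5 or more prefix reads per library. Points are the libraries, replicate 1 left of replicate 2, and bars are 95% Clopper-Pearson intervals. Son is at 81.1% and 81.7%, and the other 7 genes lie between 23.2% and 68.4%.

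Prefix models were found in most of the listed genes of the contractile apparatus, which are read deeply in heart. Of 29 sarcomere and Z-disc genes 19 had at least 1 in either library, against 12.7% of all annotated genes with reads, and prefix reads made up 0.212% and 0.225% of their reads, against 0.344% and 0.337% over all annotated genes. Among all genes with at least 1000 reads in a library, 41.5% in replicate 1 and 38.7% in replicate 2 had a prefix model in that library. The pooled share was 0.0777% and 0.0666%. The count of 19 genes takes either library, so it is not on the same measure as these single-library percentages. The part of depth in the values of the list was not tested. The alpha cardiac myosin heavy chain gene Myh6 had the most models, 22 in replicate 1 and 31 in replicate 2. They held 31 of 11708 and 47 of 15468 reads. Their ends were scattered, with 18 and 28 of these reads at no annotated position and 10 and 18 on exon borders. Myl3 had 27 and 29 prefix reads, of which the chain that read through the last intron held 26 and 27. Myh7, the beta heavy chain, had 7 prefix reads of 60 in replicate 1 and 29 of 381 in replicate 2, or 11.7% and 7.61%. Its leading 26-exon chain had 4 and 19 reads and did not end at the same base in the libraries.

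Of 17 genes of calcium handling and excitation 10, or 58.8%, had prefix models in either library, against 12.7% of all annotated genes with reads. Prefix reads made up 0.271% and 0.278% of the list's reads, against 0.344% and 0.337% over all annotated genes. The part of depth in these values was not tested. Ryr2, the calcium release channel of the sarcoplasmic reticulum, had 11 prefix reads of 71 and 15 of 91, or 15.5% and 16.5%, and no read on a known transcript. Its leading chain covered 22 exons and had 5 and 9 reads. Trdn, which anchors calsequestrin to that channel, had 12 and 19 prefix reads, or 2.76% and 2.28%, on 6 and 11 models. Atp2a2, the calcium pump of the same membrane, had 8 and 23 prefix reads of 4101 and 5890.

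The metabolic lists had prefix models in 12 of 20 genes of the respiratory chain and ATP synthase, 13 of 20 of fatty acid oxidation and 10 of 18 of the TCA cycle. Over all annotated genes with reads this was 12.7%. Of genes with at least 1000 reads in a library, 41.5% and 38.7% had one in that library, which is not the same measure. The pooled shares of the lists were between 0.0456% and 0.123%, against 0.344% and 0.337% over all annotated genes. The part of depth was not tested here either. In the complex I gene Ndufa10 a 9-exon chain had 7 and 11 reads and ended 2559 bases into the last intron, at the same base in both libraries. Idh2, the mitochondrial isocitrate dehydrogenase, had 7 and 5 reads on a chain that read through its last intron to the usual end. Ech1, an auxiliary enzyme of fatty acid oxidation, had 4 reads on such a chain in replicate 1 and none in replicate 2. In the citrate cycle gene Fh1 the prefix chain had 2 reads in each library and ended on an exon border.

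In the genes of other heart cells and of the polyadenylation machinery prefix reads were few in number, and so were the reads of some of these lists. Of 13 matrix and fibroblast genes only Dcn had a prefix model, with 1 read in replicate 1 and 0 in replicate 2. Of 8 endothelial genes 3 had one, and prefix reads came to 3 of 285 reads in replicate 1 and 5 of 483 in replicate 2, or 1.05% and 1.04%, which is above the 0.344% and 0.337% over all genes but rests on those few reads. Among them was Kdr, a receptor of vascular endothelial growth factor, with 2 prefix reads of 25 in replicate 1 and 2 of 51 in replicate 2. Kdr was also the only gene with prefix reads among the 8 with any reads in a list of 9 genes known for intronic poly(A) sites. That is 12.5% of them, against 12.7% of all annotated genes with reads. The 2 prefix reads of Kdr in replicate 1 and 1 of those in replicate 2 ended on an exon border. The other read in replicate 2 ended in an intron. The 19 cleavage and polyadenylation factors had 0 prefix reads of 311 in replicate 1 and 4 of 420, or 0.952%, in replicate 2. In replicate 2 Papola, Cpsf3 and Cstf1 had 2, 1 and 1 of them. The 3 genes for U1 snRNP proteins had 0 prefix reads of 84 and 152 reads. Of the matrix list 9 of 13 genes had enough reads for the test of the difference between the libraries, of the endothelial list 5 of 8 and of the cleavage factors 6 of 19, and none passed, against 0.0489% of all genes tested.

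No prefix model that could be tested differed between the libraries past the threshold. The exact binomial test, with Benjamini-Hochberg adjustment over all 10126 models with at least 10 reads, called 2.52% of all models, 1.65% higher and 0.869% lower in replicate 1. Only 76 of the 2701 prefix chains had enough reads, 0 of them were called, and 7 had an unadjusted p under 0.05. On the log2 scale, with replicate 1 over replicate 2, their median ratio was 0.04, against 0.09 over all models tested. The members that were tested are those with more reads.

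The share of a gene's reads that were prefix reads passed the same kind of adjustment in 2 of 4087 genes, or 0.0489% (0.204% of the 978 genes with prefix reads), by Fisher's exact test, with 20 genes under an unadjusted p of 0.05. In Cars2 it was 0 of 55 reads in replicate 1 and 43 of 71 in replicate 2 (adjusted p = 3.11e-11). In Dus1l, a tRNA dihydrouridine synthase, it was 0 of 43 and 23 of 54 (adjusted p = 0.000208). The class label differed between the libraries in both genes. The chains called prefix in replicate 2 had 38 reads for Cars2 and 10 for Dus1l in replicate 1, where they were given as new models. When such reads were counted in both libraries, which was chosen after seeing the data, the shares were 69.1% and 60.6% for Cars2 and 23.3% and 42.6% for Dus1l (unadjusted p = 0.0544 by Fisher's exact test), and 0 of 4087 genes passed, with 11 under an unadjusted p of 0.05.

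Where a chain was a prefix model in both libraries its end was usually the same. Of the 429 shared chains 68.8% ended at the same base and 79.5% within 10 bases. The same base was found for 80 of the 81 chains that ended on an exon border in both and for 84.7% of the 209 at an annotated transcript end in both. Chains with the same introns have few such positions to end at, so this agreement follows in part from how these groups were chosen. At other positions in both libraries the same base was found for 44.7% of the 85. The remaining 54 chains ended in different kinds of place, a median of 906 bases apart. A model has 1 end position in the deposited annotation although its reads may end at several.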

How the data were processed

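Long-read RNA sequencing of 2 heart libraries was analysed. For each library the authors deposited read counts of every transcript model, not normalized, with the positions of its exons. The build is mm10 and the annotation behind known models is GENCODE M21, per the deposited text descriptions. TALON is named as the source of new models, per the source column of the deposited annotation. How reads were aligned and filtered is not given. Members and gene lists were chosen with earlier results of these data known.

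Models were matched by intron chain. CPM was computed per 1e6 mouse reads, and log2 ratios used a pseudocount of 1 CPM. The counts of a model with 10 or more reads in total were tested against the share of mouse reads of the libraries (exact binomial test, two-sided), and prefix shares of genes (at least 20 reads in each) by Fisher's exact test. Both used Benjamini-Hochberg adjustment at 0.05 over all models or genes, and both were tested on simulated data. The named items were the 15 chains with the highest count in whichever library had fewer reads, the 8 genes with the highest prefix share, the called genes and up to 3 genes per list with the most prefix reads. Sequence came from annotated transcripts, so introns had none, and the sequences at some ends are not reported here: poly(A) signals are given for annotated ends and exon borders, and A-rich stretches are measured in the spliced parent in place of the genome. edgeR 4.0.16 (TMM) and DESeq2 1.42.0 (size factors) gave scaling alternatives. Calculations used Python 3.11.15, numpy 2.4.6, pandas 2.3.3, scipy 1.17.1 and R 4.3.3.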

Additional observations from a re-analysis of the deposited data

How the results depend on the processing

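No paired analysis was possible because the libraries form 1 group. Leaving out a library left each share as the value of the other, and no test was possible. The count of called prefix models was 0 under all 7 alternatives of scaling, filter and features, and the 2 called genes stayed 2 under 3 alternatives and became 0 when chains that are prefix in either library were counted, which was added after seeing the data. The median distance between the libraries' ends was 0 bases under both alternatives. The prefix share ranged from 0.328% to 0.339% between the libraries. It was 0.107% with models of at least 5 reads, where replicate 1 was lower (0.106%, against 0.108%), and 2.54% of incomplete reads, where the difference passed (2.78% and 2.30%). The other values are means over the libraries. Chains found again came to 28.1%, 61.7% and 89.9% at minimums of 1, 2 and 10 reads, to 73.6% with ends within 50 bases and to 97.0% under any class. The share with a poly(A) signal over annotated ends and borders was 44.8% (43.5 to 46.2 between libraries), and 42.8% within 40 bases, 52.4% within 100 bases, 61.4% with 12 hexamers, 57.2% and 64.97% at minimums of 2 and 5 reads and 53.5% by reads. The A-rich share was 8.53% (7.42 to 9.64), and 15.6% and 5.13% at thresholds of 50% and 70% A, 12.5% over 10 bases, 16.7% and 29.9% at minimums of 2 and 5 reads and 17.9% by reads. Ends in the next intron were 36.0% (35.9 to 36.1), and 35.6% and 36.4% with the parent of fewest and most introns, 35.2% with a tolerance of 10 bases, 39.1% and 37.8% at 2 and 5 reads and 39.2% by reads. Ends before the stop codon were 75.6% (75.4 to 75.7), and 73.3% and 76.6% with those parents and 70.3% and 68.2% at 2 and 5 reads. The introns kept were 58.3% (56.5 to 60), and 61.5% and 55.6% with those parents and 61.9% and 66.7% at 2 and 5 reads. The cause of these shifts was not tested. Depth limits the rest: most prefix models have 1 read.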

Other observations

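Among the 15 chains with the most reads was 1 of a gene that is not annotated, with 6 exons and 25 reads in replicate 1 and 31 in replicate 2 (chr8:77963655-77985239, minus strand). Its parent was a new model, and its ends in the libraries were 77963655 and 77963700.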
